A study of Mus musculus with 2 samples.

Results

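Thbs1, Thbs2 and Thbs3 encode thrombospondin-1, thrombospondin-2 and thrombospondin-3, and Comp encodes cartilage oligomeric matrix protein, a further member of the thrombospondin family. The genes were chosen by name, as the family members Thbs1, Thbs2, Thbs3 and Comp, and all 4 were found among the 18920 genes listed for both libraries. The study profiled single cells of the thoracic aorta by droplet-based 3' RNA sequencing. The mice carried Fbn1C1041G/+, a heterozygous missense allele of fibrillin-1 used as a model of Marfan syndrome, and no mouse without this allele was compared here. One group of mice received GLPG0187, an integrin alpha-v inhibitor according to the submitters, and the other received vehicle, each daily between 6 and 16 weeks of age. At 16 weeks the aortic root and ascending aorta were taken, animals of both sexes were pooled in equal numbers, and the cells were released with Liberase TM and elastase and sorted to remove debris. Each group is 1 library from such a pool, so a difference between the libraries has no replicate check, no test between treatments was possible, and mouse-to-mouse variation cannot be told apart from treatment.

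Thrombospondins are large, calcium-binding glycoproteins that cells secrete into the matrix around them. Thrombospondin-1 and thrombospondin-2 form trimers and bind the cell surface receptors CD47, CD36 and several integrins. Thrombospondin-1 can also release TGF-beta from its latent complex. Thrombospondin-3 and COMP form pentamers. COMP is abundant in cartilage and tendon, where it binds collagens, and in mouse arteries it has been described as a product of smooth muscle cells (SMCs).

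All 4 genes are annotated as protein-coding on mouse build GRCm38. Thbs1 lies on the plus strand at chr2:118111876-118127133 and overlaps the lincRNA Gm29233 on the opposite strand. Thbs2 lies on the minus strand at chr17:14665500-14694235. Thbs3 lies on the plus strand at chr3:89215180-89226837 and overlaps Mtx1 on the opposite strand. Comp lies on the plus strand at chr8:70373558-70382066. The sources used here do not say whether the authors' counting used strand, so reads of Thbs3 and Mtx1, or of Thbs1 and Gm29233, may not be separable where the genes overlap.

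Upstream sequence is shown for 2 of the 4 genes, Thbs2 and Thbs3, because the promoter source used held no match for Thbs1 or Comp. The sequences are the 250 bases before each start site in the RefSeq table for GRCm38.p6, read 5′ to 3′ on the gene's strand. Thbs2 is at chr17:14694263-14694512 on the minus strand and Thbs3 at chr3:89214930-89215179 on the plus strand. Capitals mark matches on either strand to the TATA box letters TATAAA, the GC box letters GGGCGG and the letters CCAAT of a CCAAT box.
Thbs2: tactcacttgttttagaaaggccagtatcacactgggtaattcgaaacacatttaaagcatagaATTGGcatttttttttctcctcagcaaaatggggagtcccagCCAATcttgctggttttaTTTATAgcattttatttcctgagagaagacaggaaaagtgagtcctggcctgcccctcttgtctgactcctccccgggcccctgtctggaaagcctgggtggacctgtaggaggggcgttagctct
Thbs3: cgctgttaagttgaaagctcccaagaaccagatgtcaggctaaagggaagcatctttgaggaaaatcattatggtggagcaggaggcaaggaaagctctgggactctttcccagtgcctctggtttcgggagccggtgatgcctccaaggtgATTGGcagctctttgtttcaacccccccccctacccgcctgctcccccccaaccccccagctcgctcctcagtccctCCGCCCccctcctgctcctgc
The Thbs2 sequence held 46.8% G and C bases and 3 CpG dinucleotides, and the Thbs3 sequence held 58.8% and 6, against medians of 52.4% and 6 over all 32851 promoters in the table. CCAAT was found 2 times before Thbs2 and 1 time before Thbs3, and 33.8% of all promoters held it. TATAAA was found 1 time before Thbs2 and not before Thbs3, with a share of 12.4% of all promoters. GGGCGG was found 1 time before Thbs3 and not before Thbs2, with a share of 32.7%. TGANTCA, the letters of an AP-1 site, was in neither sequence, and 6.75% of promoters held it. CANNTG, the E-box letters, was found 1 time in each, and 66.2% of promoters held it. The 3 motifs in capitals shared no bases. These matches describe letters in a window and are not evidence of binding.

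After removal of predicted doublets, 4349 GLPG0187 cells and 2945 vehicle cells were used. The deposited values are whole numbers that had been brought to a common depth, with a median total per cell of 14942 in the GLPG0187 cells and 14806 in the vehicle cells, so raw depth is unknown. Values below are means of these depth-corrected values per cell unless another quantity is named. The libraries shared 5 cell barcodes once the library suffix was removed. Xist RNA without Y-linked RNA was found in 26.2% of GLPG0187 cells and 32.1% of vehicle cells, although the animals were pooled in equal numbers.

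Clustering without the 4 genes gave 10 clusters, named only where markers allowed it. The SMC-like cells were a Myh11-high cluster with 1296 GLPG0187 and 531 vehicle cells (29.8% and 18.0% of each library) and a Tnnt2 cluster, led by Tnnt2 and Pln, with 379 and 308 cells. The fibroblast-like cells were a Gdf10 cluster with 733 and 650 cells and a Pi16 cluster with 306 and 209 cells. A Prss35 cluster, led by Prss35, Tbx20 and Npy, held 907 and 711 cells and stayed unnamed because it met only 6 of 10 fibroblast markers. A Chad cluster, led by Chil1, Chad and Spp1, held 183 and 204 cells (4.21% and 6.93%) and stayed unnamed with 5 of 8 chondrocyte markers. The remaining clusters were macrophage-like (339 and 179 cells), an unnamed Nts and Mmrn1 cluster of endothelial and lymphatic cells (138 and 78), Schwann-like (46 and 51) and Fabp4 endothelial-like (22 and 24).

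Thbs1 was concentrated in the Prss35 and Chad clusters at nearly equal levels in both libraries. In the Prss35 cluster its mean was 24.1 in GLPG0187 cells and 23.8 in vehicle cells, with a value above 0 in 91.4% (exact 95% interval 89.4 to 93.1) and 93.4% (91.3 to 95.1) of cells. In the Chad cluster its mean was 24.6 in GLPG0187 cells and 26.3 in vehicle cells, with 85.2% and 87.3% of cells above 0. The log2 ratios of GLPG0187 over vehicle were 0.02 in the Prss35 cluster and -0.09 in the Chad cluster. Together these clusters held most of the summed Thbs1 value: the Prss35 cluster gave 68.6% of it in the GLPG0187 cells and 66.8% in the vehicle cells, and the Chad cluster gave 14.1% and 21.1%. All such intervals cover counting error only.

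Thbs1 came from a minority of cells with high values. The top 10% of cells held 70.3% of the Thbs1 sum in the GLPG0187 cells and 65.8% in the vehicle cells, and the highest single-cell values were 202 and 184. At a finer resolution the Prss35 cluster separated into cells led by Npy, Meox1 and Tbx20, with Thbs1 means of 33.8 in GLPG0187 and 36.9 in vehicle cells, and cells led by Prss35, Vcan and Cyp2e1, with means of 18.4 and 16.0. The Npy cells were thus the highest in Thbs1 of all finer clusters in both libraries.

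Among macrophage-like cells, Thbs1 averaged 4.84 in the GLPG0187 cells and 3.74 in the vehicle cells. A value above 0 was seen in 34.5% (29.5 to 39.8) of GLPG0187 macrophage-like cells and 22.9% (17.0 to 29.8) of vehicle ones, a log2 ratio of means of 0.37. The macrophage-like group was not uniform in Thbs1. Macrophage-like cells led by Cd72, Ms4a4c and Il1b had Thbs1 means of 7.22 in GLPG0187 and 6.76 in vehicle cells, whereas those led by Ccl8 and Folr2, a marker of resident macrophages, had means of 1.54 and 0.24. In the Ccl8 and Folr2 cells 9 of 142 GLPG0187 cells and 0 of 83 vehicle cells reached a Thbs1 value of 10, and the 9 cells held 80.8% of the GLPG0187 sum. Over all macrophage-like cells the log2 ratio was 3.46 in Xist-only cells, from 42 GLPG0187 and 37 vehicle cells, and 0.23 in Y-only cells, from 239 and 117 cells. Platelets carry thrombospondin-1, and the summed platelet marker list, which includes the macrophage-expressed gene Pf4, was 27.7 in GLPG0187 and 34.6 in vehicle macrophage-like cells, with 2 of its 5 listed genes under 0.01 in both libraries. The SMC list summed to 21.0 in GLPG0187 and 10.2 in vehicle macrophage-like cells (log2 ratio 1.05), and the cycling list to 3.19 and 1.92 (0.73). The chondrocyte list went the other way, at 0.761 and 1.68 (-1.13). The part of the cells behind these lists in the Thbs1 values was not tested.

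The Myh11-high cells had the lowest Thbs1 detection of any cluster, with 11.6% (9.88 to 13.4) of GLPG0187 cells and 10.9% (8.40 to 13.9) of vehicle cells above 0. Thbs1 averaged 0.52 in GLPG0187 and 0.34 in vehicle Myh11-high cells, a log2 ratio of 0.61 that passed 1.5-fold. In these cells 57.1% of the GLPG0187 sum came from 12 cells with values of 10 or more and 46.1% of the vehicle sum from 3 such cells. The Tnnt2 cells stood above them, with Thbs1 at 3.09 in GLPG0187 and 2.19 in vehicle cells (log2 ratio 0.50). Across all SMC-like cells the means were 1.10 in GLPG0187 and 1.02 in vehicle cells, a log2 ratio of 0.12. The Myh11-high cluster, low in Thbs1, made up 77.4% of GLPG0187 SMC-like cells and 63.3% of vehicle ones. With each cluster weighted as in the vehicle library, the SMC-like log2 ratio was 0.52. Without the modulated sub-clusters Thbs1 averaged 1.02 in GLPG0187 and 0.59 in vehicle SMC-like cells, a log2 ratio of 0.78 that passed 1.5-fold. Y-only cells of all SMC-like cells pooled gave -0.15, so neither a direction nor a size of the pooled ratio held over these settings. Within clusters the Xist-only and Y-only log2 ratios were 1.29 and 0.27 in Myh11-high cells and 0.70 and 0.30 in Tnnt2 cells. In the modulated cells they were 0.80 and -0.98.

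Thbs1 in endothelial cells was low per cell but often detected. In Fabp4 endothelial-like cells it averaged 1.73 in GLPG0187 and 2.29 in vehicle cells, with 63.6% and 66.7% of cells above 0. CD36, a thrombospondin-1 receptor and fatty acid carrier, was present in every cell of that cluster, where Cd36 averaged 21.2 in GLPG0187 and 22.3 in vehicle cells. Outside it Cd36 was low, with 1.90 in GLPG0187 and 2.66 in vehicle macrophage-like cells. Cd47, the other classical receptor, was lowest in the Myh11-high cells (1.66 and 1.69) and highest in the Nts and Mmrn1 cluster (10.5 and 9.95).

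Thbs2 was spread over the Chad, Prss35 and Pi16 clusters. Its mean in the Chad cluster was 2.89 in GLPG0187 cells and 4.25 in vehicle cells. In the Prss35 cluster it was 2.07 in GLPG0187 and 2.52 in vehicle cells. In Pi16 fibroblast-like cells it was 2.09 in GLPG0187 and 1.66 in vehicle cells. The log2 ratios were -0.55, -0.28 and 0.33, so the Pi16 cluster was the one of these clusters with more Thbs2 under GLPG0187. The shares of cells above 0 had the same directions: 60.7% (53.2 to 67.8) in GLPG0187 against 68.6% (61.8 to 74.9) in vehicle Chad cells, 69.0% (65.9 to 72.0) against 78.8% (75.6 to 81.7) in Prss35 cells, and 58.8% (53.1 to 64.4) against 47.4% (40.4 to 54.4) in Pi16 cells. These intervals cover counting error within 1 library and not the spread between mice, so none of these differences is singled out.

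In the other fibroblast-like cluster, led by Gdf10, Thbs2 averaged 0.67 in GLPG0187 and 0.96 in vehicle cells (log2 ratio -0.52). The opposite differences of the Gdf10 and Pi16 clusters left the fibroblast-like mean nearly equal, at 1.09 in GLPG0187 and 1.13 in vehicle cells (log2 ratio -0.06). In SMC-like cells Thbs2 was low, at 0.35 in GLPG0187 and 0.41 in vehicle cells. It was nonetheless detected more often in Myh11-high than in macrophage-like cells. A value above 0 was seen in 28.5% of GLPG0187 and 30.5% of vehicle Myh11-high cells, against 5.31% and 1.12% of macrophage-like cells. No Fabp4 endothelial-like cell held a Thbs2 value in either library (0 of 22 and 0 of 24), which allows a share of up to 13.6% and 12.5%.

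The Thbs2 difference in the Chad cluster was uneven between cells of each sex. Among cells with Xist and no Y-linked RNA the log2 ratio was -1.49, from 28 GLPG0187 and 40 vehicle cells. Among cells with Y-linked RNA and no Xist it was -0.19, from 130 and 122 cells. The sex of the animals is pooled within a library, so these are subsets of cells and not replicates.

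Thbs3 had its highest mean in the Pi16 fibroblast-like cells, which are led by Pi16 and Clec3b, genes of adventitial fibroblasts. There it averaged 1.32 in GLPG0187 and 1.13 in vehicle cells and was above 0 in 61.8% (56.1 to 67.2) and 56.0% (49.0 to 62.8) of cells. Gdf10 fibroblast-like cells followed, with means of 0.56 in GLPG0187 and 0.67 in vehicle cells. The Chad, Prss35 and Myh11-high clusters lay together between 0.29 and 0.40 in both libraries. Thbs3 was close to absent from macrophage-like cells, with 2.06% of GLPG0187 and 2.79% of vehicle cells above 0, and was not detected in any Fabp4 endothelial-like cell. No cell of any kind exceeded a Thbs3 value of 7 in the GLPG0187 library or 6 in the vehicle library.

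The libraries were close in Thbs3. The log2 ratios were -0.05 over all cells, 0.26 in SMC-like cells and -0.00 in fibroblast-like cells. Within the fibroblast-like group the Pi16 cells had a log2 ratio of 0.22 and the Gdf10 cells -0.27, the same directions as for Thbs2. None of these values reached 1.5-fold, the size at which a gene was counted as passing.

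**Figure D1:**
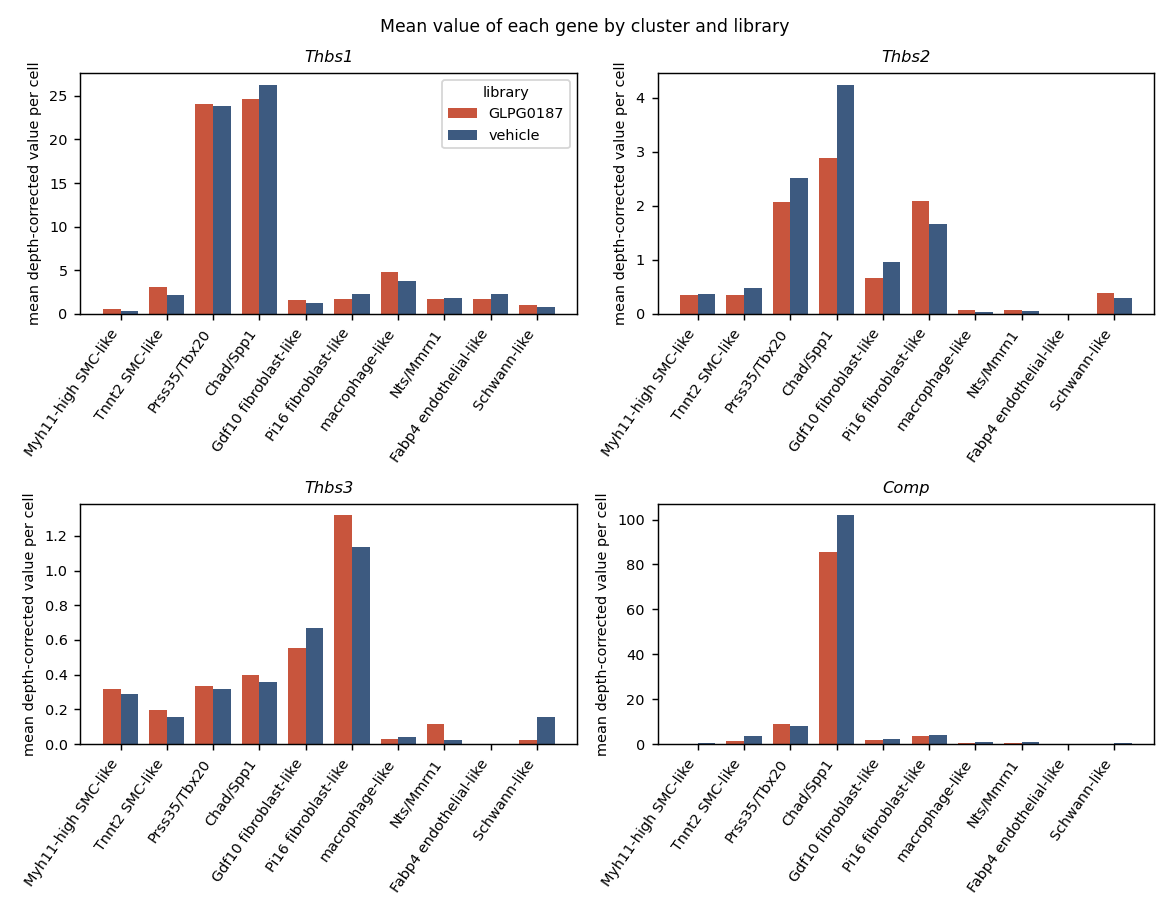
Mean depth-corrected value per cell (y axis, linear from 0) of Thbs1, Thbs2, Thbs3 and Comp in each of the 10 clusters (x axis), with the GLPG0187 library in red left of the vehicle library in blue, 1 library each. Thbs1 is high in both the Prss35/Tbx20 and Chad/Spp1 clusters, Comp stands out in Chad/Spp1 cells (85.5 and 102.0), and Thbs3 peaks in Pi16 fibroblast-like cells (1.32 and 1.13).

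**Figure D2:**
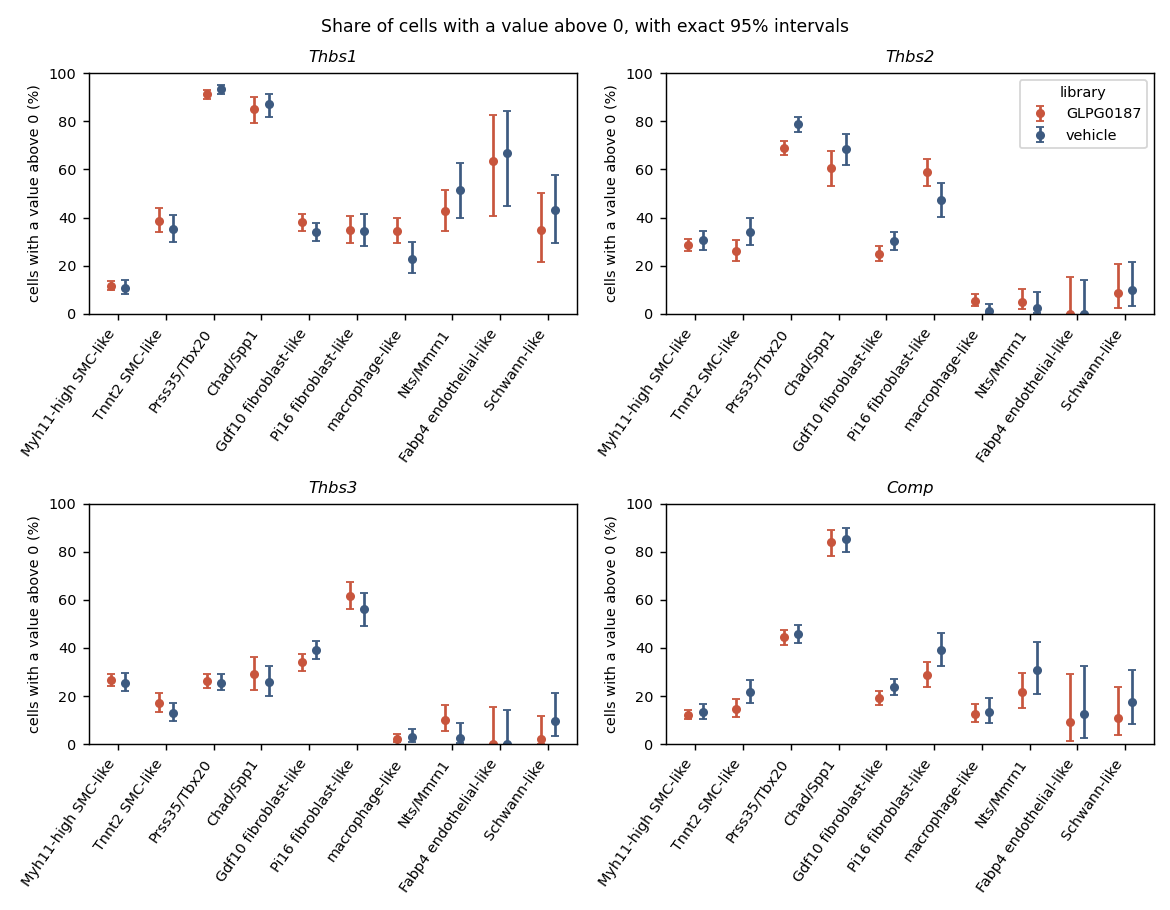
Percentage of cells with a value above 0 (y axis) for each gene in each cluster (x axis), with exact 95% binomial intervals that cover counting error only, GLPG0187 in red and vehicle in blue. For Thbs2 the Prss35/Tbx20 points are 69.0% and 78.8%, and for Comp the Myh11-high SMC-like points (12.2% and 13.4%) lie at the level of macrophage-like cells (12.7% and 13.4%).

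Comp was a gene of the Chad cluster. Its mean there was 85.5 in GLPG0187 cells and 102.0 in vehicle cells, with medians of 64 and 82 and highest values of 438 and 511. A Comp value above 0 was found in 84.2% (78.0 to 89.1) of GLPG0187 and 85.3% (79.7 to 89.9) of vehicle Chad cells. Values of 100 or more were found in 35.0% of GLPG0187 and 40.2% of vehicle Chad cells. The Chad cells are also defined by Chad, which encodes chondroadherin of cartilage matrix, and by Spp1, which encodes osteopontin. The log2 ratio of Comp between the libraries was -0.25 in these cells, the largest source of Comp in the tissue.

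Prss35 cells came next, with Comp at 8.77 in GLPG0187 and 8.27 in vehicle cells. Within them the Npy cells held more, with means of 19.7 in GLPG0187 and 17.7 in vehicle cells, and the Vcan cells less, with 1.84 and 2.59. Pi16 fibroblast-like cells had Comp means of 3.41 in GLPG0187 and 3.84 in vehicle cells, and Gdf10 fibroblast-like cells 1.84 and 2.13. A small finer cluster led by Hp, Saa3 and Lcn2, acute-phase genes, had Comp means of 23.6 in 38 GLPG0187 cells and 70.0 in 31 vehicle cells. Values of 10 or more were seen in 15 of these GLPG0187 cells and 22 of the vehicle cells. Thbs2 was also lower there, at 1.26 in GLPG0187 and 3.45 in vehicle cells. Thbs1 (8.24 and 4.68) and Thbs3 (0.66 and 0.29) went the other way. Of the cells in this cluster 0 GLPG0187 and 1 vehicle cells were Xist-only, against 34 and 21 Y-only cells.

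Over all cells Comp averaged 6.22 in the GLPG0187 cells and 10.3 in the vehicle cells, a log2 ratio of -0.73. The Chad cluster supplied 57.9% of the Comp sum in the GLPG0187 cells and 68.3% in the vehicle cells, while the Prss35 cluster supplied 29.4% and 19.3%. The Chad cluster was itself a smaller share of the GLPG0187 library, at 4.21% of cells against 6.93% in the vehicle library. With each cluster weighted as in the vehicle library, the GLPG0187 mean was 8.92 against the vehicle mean of 10.3, a log2 ratio of -0.21. Most of the difference over all cells thus lay in how many cells each cluster contributed, and a change of cell numbers and a difference in cell recovery cannot be told apart here.

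**Figure D3:**
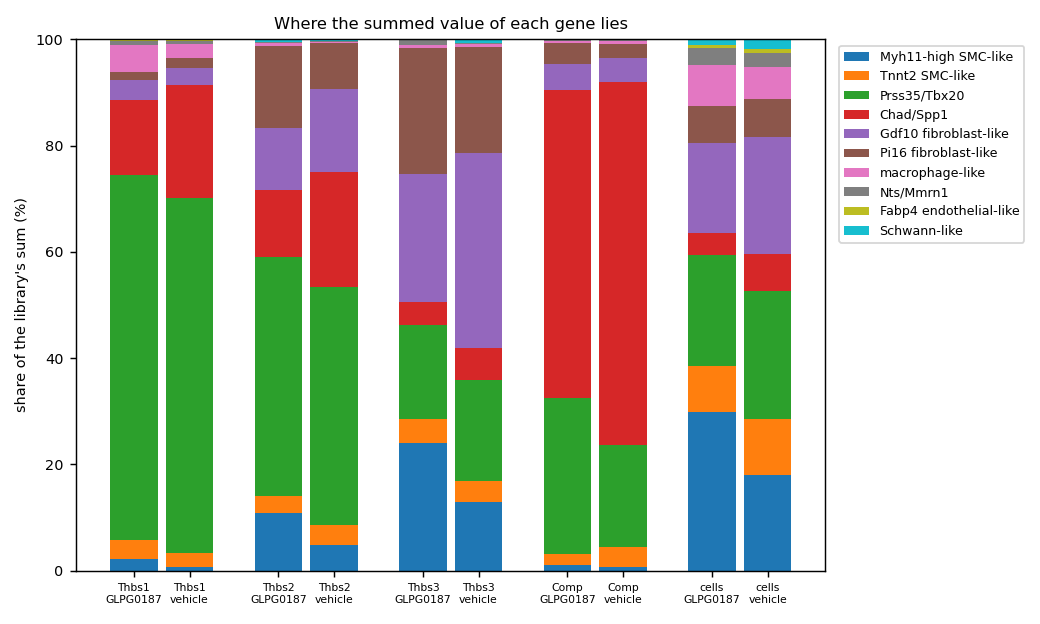
Share of each library's summed value (y axis, percent) that each cluster supplied for Thbs1, Thbs2, Thbs3 and Comp, with the share of cells in the last pair of bars and GLPG0187 left of vehicle in each pair. Chad/Spp1 cells, 4.21% and 6.93% of the cells, supplied 57.9% and 68.3% of Comp, and Prss35/Tbx20 cells supplied 68.6% and 66.8% of Thbs1.

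In SMC-like cells most of the Comp sum of each library lay in few cells. Comp averaged 0.50 in GLPG0187 and 1.61 in vehicle SMC-like cells, a log2 ratio of -1.67. Cells with a Comp value of 10 or more numbered 12 of 1675 in the GLPG0187 library and 25 of 839 in the vehicle library, and they carried 59.0% and 83.2% of the sum. In the remaining SMC-like cells the mean was 0.21 in the GLPG0187 cells and 0.28 in the vehicle cells. This cut is made on the Comp value itself and took out more of the vehicle cells. Leaving out the 1% of cells with the highest values gave a log2 ratio of -1.90. Leaving out the highest cell of each library gave -1.61.

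Nearly all of the SMC-like cells with a Comp value of 10 or more lay in the Tnnt2 cluster. There Comp averaged 1.46 in GLPG0187 and 3.80 in vehicle cells (log2 ratio -1.37), with 11 and 23 cells at 10 or more, and 14.8% (11.4 to 18.7) and 21.8% (17.3 to 26.8) of cells above 0. In the Myh11-high cluster Comp averaged 0.22 in GLPG0187 and 0.34 in vehicle cells, and 12.2% and 13.4% of cells were above 0. Macrophage-like cells, set beside them as an untested measure of free RNA, had a Comp value above 0 in 12.7% of GLPG0187 and 13.4% of vehicle cells. Their median was 3130 genes per cell, against 4126 in the Myh11-high cluster. Comp in Myh11-high cells was thus detected about as often as in macrophage-like cells, and no difference was drawn from it. The part of free RNA in these values was not tested.

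Marker list sums are given beside Comp in SMC-like cells. The fibroblast (log2 ratio -0.40), modulated SMC (-0.49) and SMC (0.22) lists stayed within 1.5-fold. The neutrophil list, near 0 in both libraries, was higher in GLPG0187 cells (0.0275 against 0.00954 in vehicle cells). The summed value of the chondrocyte marker list was 1.87 in GLPG0187 and 3.50 in vehicle SMC-like cells, with 3 of its 8 genes under 0.01 in both libraries, and that of the fibroblast marker list was 13.6 and 17.9. The melanocyte list summed to 0.0161 in GLPG0187 and 0.278 in vehicle SMC-like cells, the largest log2 difference of any list there (-3.46), and the SMC list to 658 and 563. The summed value of the list for modulated SMCs, contractile cells that have taken on matrix and fibroblast genes, was 29.4 in GLPG0187 and 41.1 in vehicle cells. Sub-clusters that met this list were 5.31% of GLPG0187 and 20.4% of vehicle SMC-like cells. Comp in these modulated cells averaged 4.44 in 89 GLPG0187 cells and 5.08 in 171 vehicle cells, a log2 ratio of -0.19. Cells at 10 or more, 6 GLPG0187 and 13 vehicle cells, held 92.7% and 94.1% of these sums, and the other modulated cells averaged 0.35 and 0.32. Without them Comp averaged 0.28 in GLPG0187 and 0.72 in vehicle SMC-like cells, a log2 ratio of -1.35. With predicted doublets kept, the log2 ratio of Comp in SMC-like cells was -1.44. The part of the cells behind these marker lists in the Comp values was not tested.

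Over all SMC-like cells pooled, cells of each sex gave the same direction for Comp but different sizes. Among Xist-only cells the log2 ratio was -0.74, with means of 0.61 in 473 GLPG0187 cells and 1.03 in 254 vehicle cells. Among cells with Y-linked RNA only it was -2.46, with means of 0.35 in 1050 GLPG0187 cells and 1.99 in 514 vehicle cells.

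**Figure D4:**
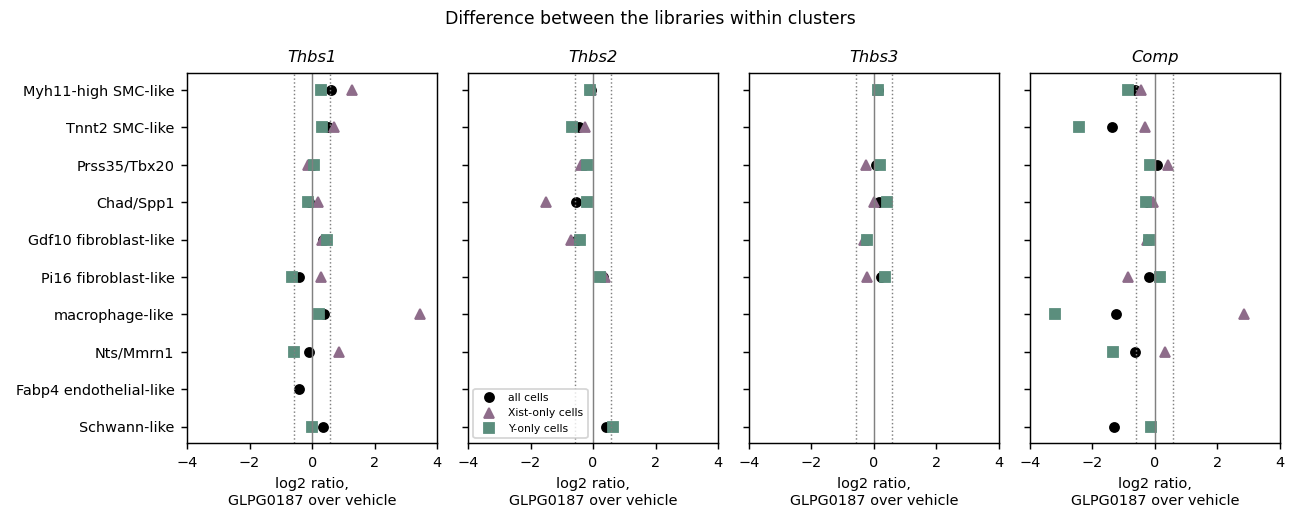
Log2 ratio of GLPG0187 over vehicle means (x axis) by cluster (y axis) for each gene, for all cells (black circles), Xist-only cells (purple triangles) and Y-only cells (green squares), drawn where a library's mean reached 0.3 and, for the cell subsets, where each library had at least 20 cells. Dotted lines mark 1.5-fold; Comp lies left of 0 in the Tnnt2 SMC-like cluster (-1.37 over all cells) and near 0 in Prss35/Tbx20 cells (0.09).

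Set against all genes, 1 of the 4 genes passed 1.5-fold over all cells, Comp on the lower side, where 0.919% of 13271 measured genes were lower and 2.5% were higher. A gene counted as measured where its summed value over both libraries reached 100, and all 4 genes did so in each set of cells given here. In SMC-like cells 1 of 4 was lower by this size, again Comp, with a background of 2.07% lower and 0.446% higher among 10751 genes. In fibroblast-like cells 0 of 4 passed in either direction, with 0.814% of genes lower and 2.25% higher. In the Prss35 cluster 0 of 4 passed, with 1.23% lower and 1.42% higher. In the Chad cluster 0 of 4 passed, with 1.37% lower and 2.12% higher, and Thbs2 at -0.55 was the nearest. Median-of-ratios scaling (-0.60), Xist-only cells (-1.49) and leaving out the 1% of cells with the highest values (-0.65) each took Thbs2 past 1.5-fold there. The median log2 ratio over measured genes lay between -0.06 and 0.05 in these sets of cells.

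Counted over the clusters where a library's mean reached 0.5, Thbs1 was higher in the GLPG0187 library in 6 of 10 clusters and lower in 4. Of these, 1 passed 1.5-fold on the higher side, the Myh11-high cluster (log2 ratio 0.61), and 0 on the lower. Without the highest cell of each library its log2 ratio was 0.93. Comp was higher in 1 of 7 clusters, the Prss35 cluster, and lower in 6, of which 3 passed 1.5-fold. These were the Tnnt2, macrophage-like and Nts and Mmrn1 clusters. In vehicle macrophage-like cells 1 cell held a Comp value of 122. Without the highest cell of each library the macrophage-like means were 0.296 in GLPG0187 and 0.185 in vehicle cells, so the direction turned (log2 ratio 0.65), and no difference was drawn from this cluster. The same step gave -1.39 in the Tnnt2 cluster and -0.54, within 1.5-fold, in the Nts and Mmrn1 cluster. Thbs2 was higher in 1 of 4 clusters, and Thbs3 in 1 of 2. Clusters of 1 library share its cells and processing and are not independent of each other. The share of all genes past 1.5-fold was not computed in the Myh11-high, Tnnt2, macrophage-like or Nts and Mmrn1 clusters. The counts of passing clusters thus have no background, and no result about Thbs1 or Comp was drawn from them.

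Thrombospondin receptors and binding partners are given as values. In SMC-like cells 13 of 15 were measured and 0 passed 1.5-fold in either direction, where 2.07% of all genes were lower and 0.446% higher, so a count of 0 is near the background. They had a median log2 ratio of -0.07. Itga5, the alpha chain of the fibronectin receptor, had means of 2.73 in GLPG0187 and 1.97 in vehicle SMC-like cells (log2 ratio 0.47). Itgb1, the common beta-1 integrin chain, had 28.1 and 25.3. Cacna2d1, a calcium channel subunit that binds thrombospondins, had 1.89 and 1.74. In fibroblast-like cells 11 were measured and again 0 passed, beside 0.814% of all genes lower and 2.25% higher, with Calr, encoding calreticulin, at 13.2 in GLPG0187 and 10.9 in vehicle cells, and Lrp1, an endocytic receptor, at 16.0 and 14.3. Itgav, the chain that GLPG0187 is directed at, averaged 1.47 in GLPG0187 and 1.35 in vehicle fibroblast-like cells.

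Of the proteases known to cut thrombospondins or COMP, 4 of 7 were measured in SMC-like cells. Mmp2, encoding a gelatinase, was lower, at 0.451 in GLPG0187 and 0.739 in vehicle cells (log2 ratio -0.70), and the other 3 stayed within 1.5-fold, beside 2.07% of all genes lower and 0.446% higher. Mmp2 was not compared within the SMC-like clusters, whose mix differed between the libraries. Adamts1, which cuts thrombospondins, averaged 3.61 in GLPG0187 and 4.87 in vehicle SMC-like cells, and Htra1, encoding a serine protease, averaged 5.46 and 6.15. In fibroblast-like cells 1 of 6 measured proteases passed, beside 0.814% of all genes lower and 2.25% higher. This was Adamts4, an aggrecanase, which was higher at 0.924 in GLPG0187 and 0.338 in vehicle cells (log2 ratio 1.43). By cluster it averaged 1.18 in GLPG0187 and 0.352 in vehicle Gdf10 cells (log2 ratio 1.72), but 0.301 and 0.292 in Pi16 cells (0.04). Adamts1 there averaged 6.92 in GLPG0187 and 5.49 in vehicle cells and Htra1 3.27 and 3.84, both within 1.5-fold.

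Cartilage matrix partners of COMP were sparse in SMC-like cells, with 4 of 12 measured, 1 lower and 0 higher by 1.5-fold, beside 2.07% and 0.446% of all genes, and a median log2 ratio of -0.28. The lower gene, named after its values were seen, was Fmod, encoding fibromodulin, at 0.21 in GLPG0187 and 0.41 in vehicle cells. Within the SMC-like clusters Fmod did not pass 1.5-fold, with 0.0563 in GLPG0187 and 0.049 in vehicle Myh11-high cells (log2 ratio 0.17) and 0.736 and 1.03 in Tnnt2 cells (-0.48), and the libraries differed in the mix of these clusters. Acan, encoding aggrecan, averaged 0.964 in GLPG0187 and 1.34 in vehicle SMC-like cells, and Prelp, encoding a leucine-rich repeat proteoglycan, 3.71 and 3.94, both within 1.5-fold. In fibroblast-like cells 4 were measured and 0 passed, beside 0.814% of all genes lower and 2.25% higher. Matn2, encoding matrilin-2, averaged 2.07 in GLPG0187 and 2.38 in vehicle fibroblast-like cells, Fmod 4.97 and 5.66, and Prelp 7.47 and 8.13.

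For the latent TGF-beta complex that thrombospondin-1 can activate, 7 of 7 genes were measured in SMC-like cells, and 1 was lower and 0 higher, beside 2.07% and 0.446% of all genes. That gene was Tgfb1, at 0.422 in GLPG0187 and 0.694 in vehicle cells (log2 ratio -0.70). Tgfb1 was not compared within the SMC-like clusters, whose mix differed between the libraries. Ltbp2, encoding a latent TGF-beta binding protein, had 0.687 in GLPG0187 and 1.02 in vehicle cells, and Tgfb3 had 1.60 and 1.23, both within 1.5-fold. In fibroblast-like cells 0 of 7 passed, beside 0.814% of all genes lower and 2.25% higher, with Tgfb1 at 0.544 in GLPG0187 and 0.687 in vehicle cells, Tgfb2 at 0.657 and 0.478, and Ltbp1 at 2.21 and 1.97.

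Among 14 other matricellular genes in SMC-like cells, 3 were lower and 1 was higher, beside 2.07% and 0.446% of all genes, with a median log2 ratio of -0.07. Ctgf, encoding connective tissue growth factor, was lower, with means of 25.1 in GLPG0187 and 44.1 in vehicle cells (log2 ratio -0.81). Smoc1, encoding a calcium-binding matrix protein, was lower at 1.72 in GLPG0187 and 2.92 in vehicle cells. Spp1, named after its values were seen, was the other gene counted as lower, with 0.141 in GLPG0187 and 0.396 in vehicle SMC-like cells. It was above 0 in 4.24% of GLPG0187 and 17.9% of vehicle Myh11-high cells, and in the Prss35 cluster in 6.51% and 13.1%, while its mean in the Chad cluster was 31.9 and 90.8. The Spp1 mean in the Prss35 cluster went the other way, at 0.270 in GLPG0187 and 0.193 in vehicle cells. Its share above 0 in Schwann-like cells did too, at 19.6% and 13.7%. Spp1 is also on the list for modulated SMCs. The part of free RNA in its SMC-like value was not tested, and no difference was drawn from it. Tnxb, encoding tenascin-X, was higher at 0.677 in GLPG0187 and 0.421 in vehicle cells. Ctgf, Smoc1 and Tnxb were not compared within the SMC-like clusters, whose mix differed between the libraries. In fibroblast-like cells 1 of 14 passed on the lower side and 0 on the higher, beside 0.814% and 2.25% of all genes. This gene was again Spp1, with means of 0.355 in GLPG0187 and 1.28 in vehicle cells and shares above 0 of 6.41% and 14.5% in Gdf10 cells. The part of free RNA was not tested here either, and no difference was drawn from Spp1. Ctgf there had means of 15.3 in GLPG0187 and 21.7 in vehicle cells, and Nov, of the same family as Ctgf, had 1.52 and 1.07, both within 1.5-fold.

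Thbs1 is known as a serum- and stress-inducible gene, so immediate early genes, which tissue digestion can induce, are given beside it. In SMC-like cells 2 of 16 were higher and 2 lower, beside 0.446% and 2.07% of all genes, with a median log2 ratio of 0.01. Fos, a subunit of AP-1, averaged 20.03 in GLPG0187 and 12.08 in vehicle SMC-like cells (log2 ratio 0.73), and Fosb 1.99 and 1.22. Klf2, a flow-responsive factor, averaged 1.93 in GLPG0187 and 3.45 in vehicle cells (log2 ratio -0.83). Egr2, the other lower gene, was near 0 in both libraries (0.0657 and 0.117). These genes were not compared within the SMC-like clusters either. In fibroblast-like cells 1 of 16 was higher and 0 lower, beside 2.25% and 0.814% of all genes. It was Fosb, at 11.3 in GLPG0187 and 7.24 in vehicle cells, and the median was 0.31. Ier3 averaged 5.87 in GLPG0187 and 3.92 in vehicle fibroblast-like cells and Zfp36 6.35 and 4.27, just within 1.5-fold. The part of tissue digestion in the Thbs1 values was not tested.

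The 4 genes fell into patterns that overlapped in part. Over the 10 clusters the Pearson correlation of log mean values was 0.86 for Thbs2 with Thbs3, 0.82 for Thbs2 with Comp, 0.81 for Thbs1 with Comp and 0.11 for Thbs1 with Thbs3. These are descriptions over clusters from the same libraries. Within the Chad cluster, Thbs2 and Comp also went together from cell to cell, with Spearman coefficients of 0.44 over GLPG0187 cells and 0.50 over vehicle cells. There Comp was above 0 in 89.2% of GLPG0187 and 90% of vehicle cells with Thbs2 above 0, against 76.4% and 75% of cells with Thbs2 at 0. For Thbs1 with Comp the coefficients in Chad cells were 0.28 and 0.39.

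**Figure D5:**
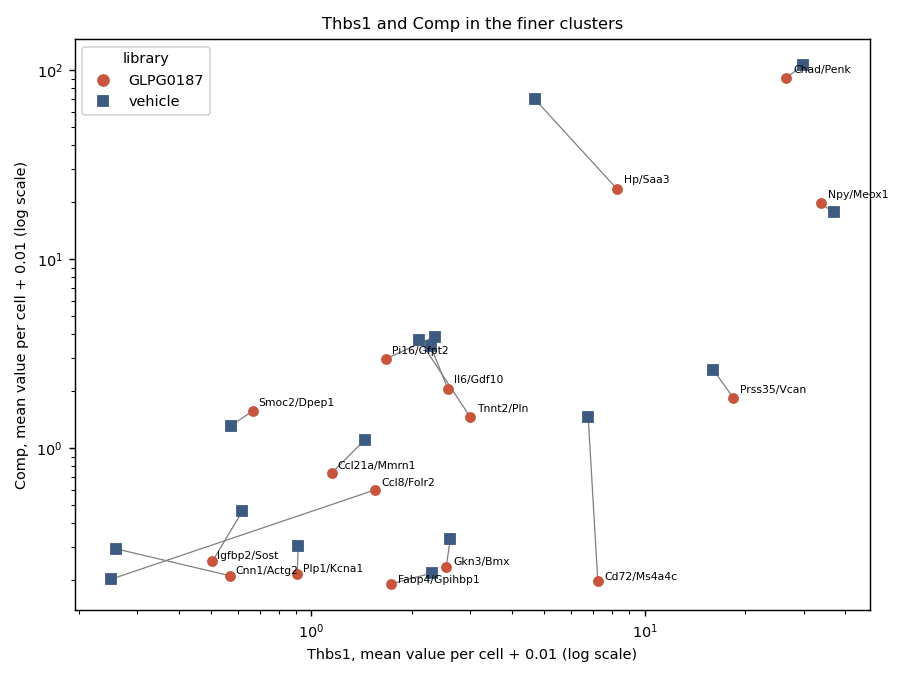
Mean Thbs1 (x axis) and mean Comp (y axis) per cell, each plus 0.01 on a log scale, in the finer clusters with at least 20 cells per library, named by 2 leading genes; red circles are GLPG0187, blue squares are vehicle and grey lines join the libraries. Chad cells are highest in Comp (90.5 and 106), Npy cells are highest in Thbs1 (33.8 and 36.9), and Cd72 macrophage-like cells have Thbs1 with little Comp.

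Among 6812 genes with enough signal, those whose cluster pattern was most like each member were listed by Pearson correlation over the 10 clusters. For Comp they were 1500015O10Rik (0.952), Timp1 (0.937), encoding an inhibitor of metalloproteinases, Angptl7 (0.934), Col8a2 (0.921) and Epyc (0.920), encoding the cartilage proteoglycan epiphycan. For Thbs1 they were Pbx3 (0.931), Cyp26a1 (0.894), Col11a2 (0.889), 1500015O10Rik (0.884) and Chad (0.874). Thbs3 was most like Numbl (0.955), Il17d (0.942), Pcolce2 (0.941), Mfap5 (0.941) and Htra3 (0.933). Thbs2 was most like Selenos (0.971), Tenm3 (0.967), Tmem39a (0.966), Prrc1 (0.95) and Gstm5 (0.946). 1500015O10Rik was thus on the lists of both Comp and Thbs1. It was on both as well over the 16 finer clusters with at least 20 cells per library. There Pbx3, Cyp26a1 and Chad left the Thbs1 list, and Timp1 left the Comp list. Of the genes named above, Thbs2 kept only Selenos and Tenm3, and Thbs3 only Numbl and Il17d. The lists thus depended in part on the resolution.

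Thbs4, the remaining family gene, was listed in the files but was not one of the chosen genes. It averaged 0.184 in GLPG0187 and 0.215 in vehicle cells over all cells. Its highest means were in the Chad cluster, at 0.978 in GLPG0187 and 0.892 in vehicle cells, and in the Prss35 cluster, at 0.61 and 0.594.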

How the data were processed

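The authors deposited 1 table per library with 1 value per gene and cell, entered here as a score. Values are whole numbers, but totals per cell varied by only 5.69% among GLPG0187 cells and 5.81% among vehicle cells (coefficient of variation), so the deposited scores had been corrected for depth and no count test was used. The submitters' processing notes list Cell Ranger, Seurat and mm10, with neither version nor role. Predicted doublets (Scrublet in scanpy 1.11.5) were 48 GLPG0187 and 16 vehicle cells and were removed. Cells were scaled to 10000 and clustered on 2000 variable genes without mitochondrial, ribosomal, sex-linked or thrombospondin genes, with 30 principal components, 20 neighbours and Leiden resolution 0.5, or 1 for finer clusters. A cluster was named where at least 4 markers and 75% of a list were met, each in 25% of cells and over 3 times the median cluster, limits set after the data were seen. Differences are log2 ratios of GLPG0187 over vehicle means plus 0.01. A gene is counted as passing at 1.5-fold, among genes with a summed value of 100 or more. With 1 library per group, no p-value was computed. Shares carry exact Clopper-Pearson 95% intervals, and a count of 0 is given with the limit of 3 cells. Genes named beside each member were the 5 with the highest correlation, and up to 3 genes per list with the largest ratios, among those with a mean of at least 0.5, were named with values. The ratio step was tested on simulated data. The members and lists were chosen with earlier results of these data known. Alternatives changed the pseudocount, scaling, filter, doublets, resolution, variable genes, sex of cells and highest cells.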

Additional observations from a re-analysis of the deposited data

Results flagged for a closer look

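Contrasts of a member with a mean of at least 0.5 numbered 35. In 14 of these, cells with Xist and no Y-linked RNA and cells with Y-linked RNA and no Xist pointed in opposite directions. The contrasts cover all cells, SMC-like cells and their parts, fibroblast-like cells and single clusters. The same cells thus enter more than 1 contrast, and the count is not a rate over separate contrasts. The 4 contrasts with both ratios past 1.5-fold are given here as values, and the difference was not tested in any. In modulated SMC-like cells the log2 ratio of GLPG0187 over vehicle for Comp was 1.20 in Xist-only cells (30 and 37 cells) and -1.73 in Y-only cells (48 and 116). Without the highest cell of each library these were 0.09 and -3.68. For Thbs1 in the same cells it was 0.80 for Xist-only cells, against -0.98 for Y-only cells. Without the highest cell of each library these Thbs1 ratios were 0.48, within 1.5-fold, and -0.92. For Comp in macrophage-like cells it was 2.87 in Xist-only cells (42 and 37) and -3.20 in Y-only cells (239 and 117). The share above 0 over all macrophage-like cells is given above. The vehicle Y-only cells include the cell with a value of 122, and without the highest cell of each library the Y-only ratio was -0.97. For Thbs1 in the Nts and Mmrn1 cluster it was 0.87 in Xist-only cells (39 and 20) and -0.60 in Y-only cells (74 and 41), and -0.28 in Y-only cells without the highest cell of each library.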

How the results depend on the processing

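Of 180 alternative values for the member ratios, 169 moved by less than 0.32 on the log2 scale and 11 by more. The sign changed in 24, all for ratios between -0.23 and 0.15, which gave values between -0.24 and 0.18, so the direction of these small ratios is not fixed. It changed for 0 of the ratios past 1.5-fold, which were only those of Comp over all cells and in SMC-like cells. The SMC-like cells are part of all cells. For Thbs1 in SMC-like cells (0.12), the log2 ratio was 0.44 in Xist-only cells, 0.78, past 1.5-fold, without modulated sub-clusters and 0.52 with clusters weighted as in the vehicle library, a weighting added after seeing the data, as was leaving out each library's highest cell. For Comp in SMC-like cells (-1.67) it was -0.74 in Xist-only cells, -2.46 in Y-only cells, -1.35 without modulated sub-clusters and -1.24 with the vehicle weights. For Comp over all cells (-0.73) the vehicle weights gave -0.21, and Xist-only cells gave -0.55, under 1.5-fold. For Thbs2 in the Chad cluster (-0.55), leaving out the 1% of cells with the highest values gave -0.65 and median-of-ratios scaling -0.60, both past 1.5-fold, and Xist-only and Y-only cells gave -1.49 and -0.19. For Thbs2 over all cells (-0.50) Xist-only cells gave -0.70, past 1.5-fold. For Comp in the Prss35 cluster (0.09) Xist-only cells gave 0.41. Without the filter on low values the genes lower and higher by 1.5-fold numbered 582 and 152 in SMC-like cells (223 and 48 with it), 336 and 511 in fibroblast-like cells (83 and 229), 528 and 480 in the Prss35 cluster (127 and 147) and 1446 and 2026 in the Chad cluster (87 and 135). The cause of these moves was not tested. No paired analysis was possible because each group is 1 library. Leaving out a replicate was not possible for the same reason. Raw depth, animals and digestion cannot be separated from treatment in these 2 libraries.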
